A study of Mus musculus with 9 samples.

Results

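A set of 10 genes that mark blood vessel endothelium and build its cell contacts was followed through 9 left ventricle libraries of mice: Cldn5, Esam, Cdh5, Pecam1, Kdr, Flt1, Tie1, Tek, Egfl7 and Vwf. They were chosen by symbol, and all 10 were found among the 30128 genes of the expression table, each in 1 row. Earlier results of these data were known at that choice, so their counts beside those of all genes are descriptions. In db/db hearts given null virus 5 of the 10 passed the test as higher than in wild type hearts, where 10.4% of all tested genes did, with Cldn5 at 280% of the control mean and Esam at 184%. The 5 became 3 in 7 of the 9 fits that left out 1 library, and Cldn5, Esam and Egfl7 passed in all 9. Vwf was level and Kdr stood at 71.4% without passing. In db/db hearts given USP28 virus Esam, Egfl7 and Tie1 were higher than in wild type hearts, where 5.69% of all genes were. Those 3 became 1 without USP28-virus replicate 1. With USP28 virus Cldn5 stood at 134% of control without passing. Between USP28 virus and null virus 0 of the 10 genes passed, where 0.553% of all genes did. Cldn5 had a limma adjusted p of 0.074 there.

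The libraries form 3 groups of 3. One group is db/db mice injected with serotype 9 adeno-associated virus that carries USP28, a deubiquitinating enzyme, under the cTnT promoter, which is active in heart muscle cells (USP28 virus). The second is db/db mice given the AAV9_null vector (null virus), and the third is wild type mice with no treatment in the labels (control). db/db mice lack a working leptin receptor and become obese and diabetic, and both virus groups carry that genotype. The promoter directs the transgene to muscle cells and not to the endothelium, whose genes are read here in RNA of whole ventricle tissue. Control and null virus differ in genotype and in virus together. The labels give neither strain, age nor time after injection. They also do not state whether each library is from its own mouse, so p-values here cover the variation among these libraries, which may be technical.

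Endothelial cells line every vessel of the heart and are held together by adherens junctions, built on VE-cadherin, and by tight junctions, in which claudin-5 is the main claudin. Vascular endothelial growth factor acts on these cells through the receptors that Kdr and Flt1 encode, and the angiopoietins act through the receptor that Tek encodes. Cardiac muscle is fed by a dense capillary net, so these transcripts are a regular part of ventricular RNA. Since whole tissue was sequenced, fewer endothelial cells and less RNA per endothelial cell cannot be told apart in any value given here.

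Depth was 35970332 to 56497662 reads per library, and the 10 genes held between 309 reads (Cldn5 in a control library) and 9595 reads (Kdr in a control library). Every value of the 10 genes was a whole number of reads. Usp28 itself was at 9.89, 11.3 and 11.2 scaled RPKM with USP28 virus, at 10.1, 7.57 and 7.78 with null virus and at 12.5, 13.3 and 13.7 in control. No USP28-virus library was above any control library, and USP28 virus minus null virus was 0.36 on the log2 scale (limma adjusted p = 0.20). Heart muscle markers dominated every library, and all 10 of their list were expressed. Null-virus replicate 1 stood apart from its group, with a mean absolute departure of 0.33 (log2) from its group mean over all tested genes, while this was 0.14 to 0.21 in the rest.

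The promoter windows of Cldn5, Flt1, Kdr and Egfl7 are shown because these genes span the range of behaviour in the group, with the largest difference in Cldn5, opposite signs for Flt1 and Kdr, and levels above control in both db/db groups for Egfl7. RefSeq (GRCm38.p6) gave 8 windows for 6 of the 10 genes, each of 250 bases before to 50 bases after a start site. Esam, Cdh5, Pecam1 and Vwf were not matched. Both strands were searched for 6 motifs, and capitals mark every match. The ETS family was searched by the letters CAGGAAG and, as its other common form, by the letters CCGGAAG. The forkhead family was searched as TGTTTAC, the family of Gata2 was searched as AGATAA, the SOX family was searched as ACAAAG, and the core promoter box was searched as TATAAA. The sequences run 5′ to 3′ on the strand of the gene.
Cldn5, chr16:18776597-18776896, plus strand: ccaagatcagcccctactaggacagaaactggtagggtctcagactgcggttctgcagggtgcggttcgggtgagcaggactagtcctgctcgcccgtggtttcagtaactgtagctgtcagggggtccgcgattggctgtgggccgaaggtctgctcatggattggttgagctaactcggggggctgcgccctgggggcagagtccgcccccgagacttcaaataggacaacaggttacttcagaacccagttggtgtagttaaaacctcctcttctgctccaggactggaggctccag
Flt1, chr5:147725962-147726261, minus strand: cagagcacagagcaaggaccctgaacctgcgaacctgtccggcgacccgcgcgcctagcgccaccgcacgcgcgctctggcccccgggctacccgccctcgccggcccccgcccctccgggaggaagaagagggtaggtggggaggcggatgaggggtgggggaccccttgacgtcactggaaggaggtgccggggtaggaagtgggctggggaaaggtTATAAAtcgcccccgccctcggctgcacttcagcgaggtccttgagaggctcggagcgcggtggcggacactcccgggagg
Kdr, chr5:75978406-75978705, minus strand: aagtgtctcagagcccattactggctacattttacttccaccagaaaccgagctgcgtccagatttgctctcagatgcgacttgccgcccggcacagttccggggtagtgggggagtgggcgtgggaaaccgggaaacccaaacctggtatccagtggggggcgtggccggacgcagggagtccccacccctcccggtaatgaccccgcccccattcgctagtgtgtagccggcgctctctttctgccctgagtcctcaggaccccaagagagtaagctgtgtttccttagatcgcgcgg
Egfl7, first window, chr2:26580833-26581132, plus strand: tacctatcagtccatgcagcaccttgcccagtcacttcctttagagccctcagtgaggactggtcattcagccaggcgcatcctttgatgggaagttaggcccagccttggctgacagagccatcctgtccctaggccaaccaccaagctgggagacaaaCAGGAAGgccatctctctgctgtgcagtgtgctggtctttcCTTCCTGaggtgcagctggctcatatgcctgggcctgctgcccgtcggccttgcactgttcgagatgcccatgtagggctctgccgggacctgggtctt
Egfl7, second window, chr2:26583615-26583914, plus strand: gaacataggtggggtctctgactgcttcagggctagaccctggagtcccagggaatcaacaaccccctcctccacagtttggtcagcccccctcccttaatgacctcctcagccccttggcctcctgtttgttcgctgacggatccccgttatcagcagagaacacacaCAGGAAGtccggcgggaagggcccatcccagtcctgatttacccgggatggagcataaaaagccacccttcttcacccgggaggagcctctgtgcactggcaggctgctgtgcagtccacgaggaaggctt

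Among the 6 genes with a window, only Egfl7 matched the searched ETS letters. The matches were at positions -90 and -49 of the first window and -81 of the second. Egfl7 was also the only gene with more than 1 window. Over all 32851 windows of the reference, 20.9% held 1 of the ETS motifs. Flt1 had a match to the core promoter box at position -31, which 13.6% of all windows held. The third Egfl7 window held a SOX match, and Tek held a SOX match and a match to the motif of the Gata2 family. These were in 18.7% and in 11.2% of all windows, in that order. The windows of Cldn5, Kdr and Tie1 held none of the 6 motifs, and no matches overlapped each other. These are matches of letters within short windows.

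Over all 10 genes, null virus minus control gave 5 higher and 0 lower at a limma adjusted p under 0.05, where 22.4% of the 14104 tested genes passed, 10.4% higher and 12% lower. All 10 genes passed the filter on low values. The median log2 difference of the 10 genes was 0.42, beside 0.01 over all tested genes. The groups did not overlap for 5 of the 10, all higher in the db/db hearts, while 41.5% of all genes did not overlap, 20.1% higher and 21.4% lower. USP28 virus minus control gave 3 higher and 0 lower, where 11.9% of all genes passed, 5.69% higher and 6.24% lower. Its median log2 difference was 0.41, beside 0.01 over all genes, and 7 of the 10 genes were higher with no overlap, where 45.8% of all genes did not overlap, 22.7% higher and 23.1% lower. USP28 virus minus null virus gave 0 passing genes in limma, where 0.553% of all genes passed in either direction, with 2 of the 10 at an unadjusted p under 0.05 (16.7% of all genes) and 1 of the 10 called by limma voom (1.38% of all genes). There 1 gene was higher with no overlap (Tie1) and 1 lower (Cldn5), where 23.4% of all genes did not overlap, 11.8% higher and 11.6% lower. These comparisons share libraries pairwise, so they are not independent of each other.

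**Figure D1:**
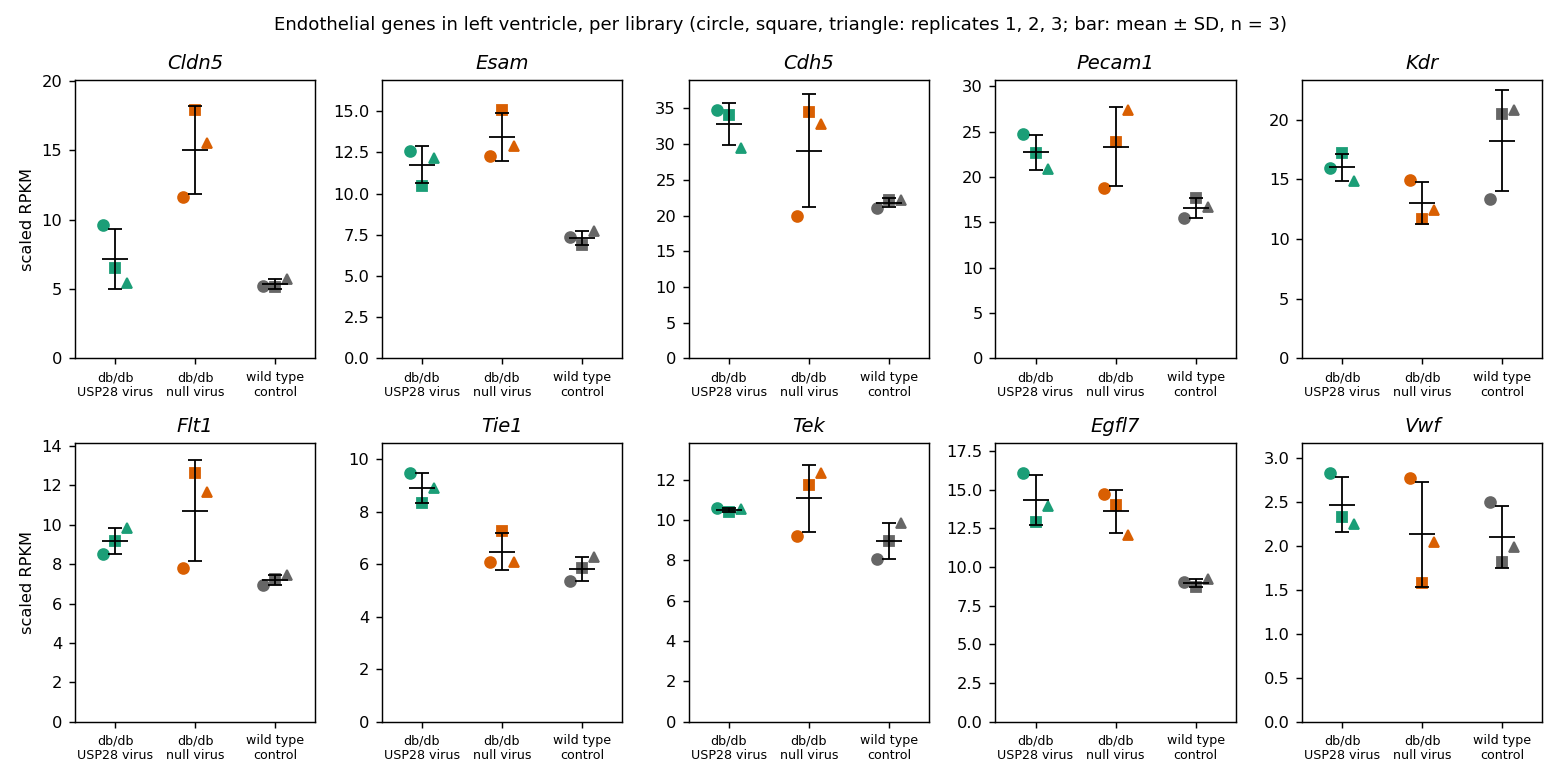
Scaled RPKM (y axis, from 0) of each of the 10 genes in 3 libraries per group, with the replicate as symbol and the mean ± SD as bar. Cldn5 is highest in the 3 null-virus libraries (11.6 to 17.9), Tie1 in the 3 USP28-virus libraries (8.35 to 9.48), and Esam and Egfl7 are above control in both db/db groups.

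The junction genes were examined first. Cldn5 encodes claudin-5, the tight junction strand protein of endothelium (chromosome 16, 18776847 to 18778260, GRCm38, plus strand, a gene with 1 exon). Its scaled RPKM (reads by gene length and depth, brought to one scale across libraries) was 9.61, 6.50 and 5.41 with USP28 virus, 11.6, 17.9 and 15.5 with null virus and 5.19, 5.14 and 5.74 in control. The null-virus libraries lay above all the others, and the USP28-virus libraries overlapped control. Cldn5 was higher with null virus (15.01 ± 3.18) than in control (5.36 ± 0.334, SD, n = 3 each), a log2 difference of 1.45 (SE 0.22, limma adjusted p = 0.0034). It was the gene of the 10 with the largest difference in this comparison.

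Between USP28 virus (7.17 ± 2.18) and null virus (15.01 ± 3.18) the log2 difference of Cldn5 was -1.07 (SE 0.22, limma adjusted p = 0.074), which missed the threshold although the groups did not overlap. Without null-virus replicate 1 it was -1.25 (adjusted p = 0.016), and with limma voom on the reads it was -1.08 (adjusted p = 0.033). The adjusted p ran from 0.016 to 0.25 over the fits that left out 1 library. USP28 virus minus control gave 0.38 (SE 0.22, adjusted p = 0.30), with USP28-virus replicate 1 as the highest of its group. It was 0.15 without that library and 0.55 without USP28-virus replicate 3.

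Esam encodes the endothelial cell-selective adhesion molecule, an immunoglobulin-like protein of tight junctions that platelets carry too (chromosome 9, 37528078 to 37538319, plus strand). It was at 12.6, 10.5 and 12.2 scaled RPKM with USP28 virus, 12.3, 15.1 and 12.9 with null virus and 7.35, 6.87 and 7.74 in control. All 6 db/db libraries were above all 3 control libraries, and the 2 virus groups overlapped. Null virus minus control was 0.86 on the log2 scale (SE 0.11, limma adjusted p = 0.0019) and USP28 virus minus control was 0.67 (SE 0.11, adjusted p = 0.0094). The second passed in 8 of the 9 fits that left out 1 library, and had adjusted p = 0.052 without USP28-virus replicate 1.

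Cdh5 encodes VE-cadherin, which joins neighbouring endothelial cells at adherens junctions (chromosome 8, 104101625 to 104144511, plus strand). Its scaled RPKM was 34.8, 34.1 and 29.5 with USP28 virus, 19.98, 34.6 and 32.8 with null virus and 21.0, 22.2 and 22.2 in control. Null-virus replicate 1 lay below every control library while the other 2 null-virus libraries lay with the USP28-virus ones. Neither difference from control passed, at 0.37 for null virus (SE 0.19, limma adjusted p = 0.19) and 0.58 for USP28 virus (SE 0.19, adjusted p = 0.082). Without null-virus replicate 1 the 2 values were 0.62 (adjusted p = 0.0011) and 0.58 (adjusted p = 0.0013).

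Pecam1 encodes CD31, an adhesion molecule of cell borders that platelets and leukocytes share (chromosome 11, 106654217 to 106750628, minus strand). It was at 24.7, 22.7 and 20.9 scaled RPKM with USP28 virus, 18.8, 23.9 and 27.5 with null virus and 15.5, 17.7 and 16.8 in control. Every db/db library was above every control library. The log2 difference for null virus minus control was 0.47 (SE 0.14, limma adjusted p = 0.045), and USP28 virus minus control was 0.45 (SE 0.14, adjusted p = 0.075). The first lost the call when any 1 of the 8 libraries other than null-virus replicate 1 was left out, with adjusted p of 0.060 to 0.12. Without null-virus replicate 1 it was 0.62 (adjusted p = 0.0025), and USP28 virus minus control was then 0.44 (adjusted p = 0.0071).

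**Figure D2:**
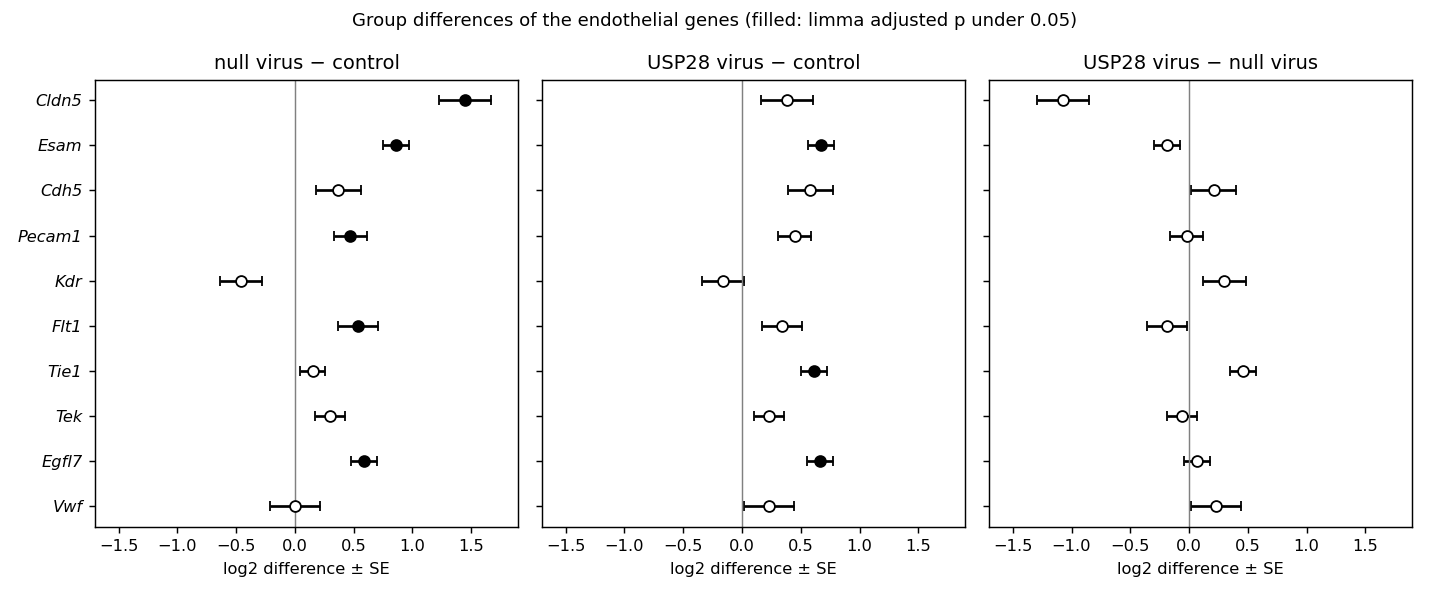
Log2 differences with their SE (x axis) of the 10 genes in the 3 comparisons, filled where the limma adjusted p was under 0.05. Cldn5 lies at 1.45 for null virus minus control and at -1.07 for USP28 virus minus null virus, and Kdr is on the left of 0 in both comparisons with control.

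The receptors for vascular endothelial growth factor had differences from control of opposite sign, and the genes were not tested against each other. Kdr encodes VEGFR2, the main signalling receptor (chromosome 5, 75932827 to 75978458, minus strand). It was at 16.0, 17.2 and 14.9 scaled RPKM with USP28 virus, 14.9, 11.6 and 12.4 with null virus and 13.3, 20.48 and 20.8 in control. Control replicate 1 lay well below the other 2 control libraries and within the db/db range. The log2 difference was -0.46 for null virus minus control (SE 0.18, limma adjusted p = 0.092) and -0.16 for USP28 virus minus control (SE 0.18, adjusted p = 0.60). Without control replicate 1 the first was -0.67 (adjusted p = 0.016), and without null-virus replicate 1 it was -0.56 (adjusted p = 0.049).

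Flt1 encodes VEGFR1, which binds the growth factor tightly and signals weakly, and is also made in a soluble form (chromosome 5, 147561604 to 147726011, minus strand). The table has 1 value per gene, so the forms are not separated. Flt1 was at 8.51, 9.16 and 9.83 scaled RPKM with USP28 virus, 7.80, 12.6 and 11.7 with null virus and 6.93, 7.24 and 7.44 in control. All db/db libraries were above control, with null-virus replicate 1 the lowest of them. Against control the null-virus difference was 0.54 (SE 0.17, limma adjusted p = 0.049), and the call was lost without any 1 of the 8 libraries other than null-virus replicate 1 (adjusted p of 0.069 to 0.12). Without null-virus replicate 1 it was 0.75 (adjusted p = 0.00072), and USP28 virus minus null virus, -0.19 with all libraries (adjusted p = 0.57), was then -0.41 (adjusted p = 0.028). USP28 virus minus control was 0.34 (SE 0.17, adjusted p = 0.22), and 0.34 with adjusted p = 0.012 without null-virus replicate 1.

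Tie1 and Tek form the angiopoietin receptor pair. Tie1 has no ligand of its own that is firmly established and modulates its partner (chromosome 4, 118471191 to 118490061, minus strand). It was at 9.48, 8.35 and 8.90 scaled RPKM with USP28 virus, 6.08, 7.28 and 6.10 with null virus and 5.38, 5.84 and 6.27 in control. The USP28-virus libraries were above all the others, and null virus overlapped control. USP28 virus minus control was 0.61 (SE 0.11, limma adjusted p = 0.012), with adjusted p = 0.061 without USP28-virus replicate 1 and adjusted p = 0.0502 without control replicate 2. USP28 virus minus null virus was 0.46 (SE 0.11, adjusted p = 0.098), and its adjusted p was 0.055 to 0.28 when 1 library was left out. Null virus minus control was 0.15 (SE 0.11, adjusted p = 0.34).

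Tek encodes TIE2, the receptor of the angiopoietins (chromosome 4, 94739289 to 94874976, plus strand). It was at 10.6, 10.4 and 10.6 scaled RPKM with USP28 virus, 9.19, 11.7 and 12.3 with null virus and 8.05, 8.98 and 9.84 in control. The USP28-virus libraries lay close together above control, and null virus overlapped both. No comparison passed in limma: null virus minus control was 0.30 (adjusted p = 0.12), USP28 virus minus control 0.23 (adjusted p = 0.26) and USP28 virus minus null virus -0.06 (adjusted p = 0.82), each with SE 0.13. Without null-virus replicate 1 the first was 0.43 (adjusted p = 0.0079).

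The last 2 genes encode secreted proteins. Egfl7 encodes an endothelial matrix protein and hosts the microRNA miR-126 in an intron (chromosome 2, 26580014 to 26593120, plus strand). It was at 16.1, 12.9 and 13.9 scaled RPKM with USP28 virus, 14.7, 13.9998 and 12.1 with null virus and 9.03, 8.70 and 9.20 in control. All 6 db/db libraries were above all 3 control libraries. Null virus minus control was 0.59 (SE 0.11, limma adjusted p = 0.0082) and USP28 virus minus control 0.66 (SE 0.11, adjusted p = 0.0098), and both passed in all 9 fits that left out 1 library. USP28 virus minus null virus was 0.07 (SE 0.11, adjusted p = 0.76).

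The mature strand of the hosted microRNA, from RefSeq (GRCm38.p6, chr2:26591402-26591423, plus strand), is shown with its seed, bases 2 to 8, in capitals.
mmu-miR-126a-3p: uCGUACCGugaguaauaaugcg

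The Mir126a row of the table covers the hairpin within Egfl7 and held 71 to 195 reads. Its scaled RPKM averaged 40.5 ± 7.19 with USP28 virus, 38.4 ± 2.90 with null virus and 24.8 ± 2.54 in control (SD, n = 3 each). Null virus minus control was 0.63 (limma adjusted p = 0.015) and USP28 virus minus control 0.70 (adjusted p = 0.017). The libraries were made from polyadenylated RNA, so this row reads longer RNA across the hairpin and not the mature microRNA. The longer gene model Gm20532 overlaps Egfl7 on the same strand and Agpat2 overlaps its end on the other strand. The sources used here do not say how reads were divided among these rows, so the level of Egfl7 is uncertain to that extent. Gm20532 was at a log2 difference of 0.34 for null virus minus control (adjusted p = 0.18).

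Vwf encodes von Willebrand factor, the clotting glycoprotein that endothelial cells and megakaryocytes store (chromosome 6, 125546774 to 125686679, plus strand). It was at 2.83, 2.34 and 2.25 scaled RPKM with USP28 virus, 2.77, 1.58 and 2.05 with null virus and 2.497, 1.82 and 1.99 in control. All 3 groups overlapped, and replicate 1 was the highest in each. Null virus minus control was -0.0011 (SE 0.21, limma adjusted p = 0.997), and both USP28 virus minus control and USP28 virus minus null virus were 0.23 (SE 0.21, adjusted p = 0.50 and 0.58).

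By level per gene length, Cdh5 was the highest of the 10 and Vwf the lowest in each group. Kdr was the second in control (18.2 ± 4.23 scaled RPKM), where its range overlapped that of Pecam1, and the sixth with null virus (13.01 ± 1.72). Cldn5 was the ninth with USP28 virus, the third with null virus and the ninth in control. The order is not set by these libraries where ranges of neighbours overlapped. That held for Cldn5 and Tie1 with USP28 virus and in control. With null virus it held for Cdh5 and Pecam1, and from Cldn5 down to Flt1. With USP28 virus it also held for Kdr and Egfl7, for Esam and Tek, and for Flt1 and Tie1. In control it also held for Kdr and Pecam1, for Egfl7 and Tek, and for Esam and Flt1.

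To read the 10 genes beside other endothelial RNA of the same library, each log2 level was set against the mean log2 level of 29 other endothelial genes. That mean was 3.31, 3.20 and 3.19 with USP28 virus, 3.17, 3.23 and 3.23 with null virus and 2.79, 2.79 and 2.80 in control, so all 6 db/db libraries were above control. Relative to it, Kdr averaged 0.77 with USP28 virus, 0.50 with null virus and 1.37 in control, with every db/db library below every control library. The gap was narrow, between USP28-virus replicate 2 at 0.907 and control replicate 1 at 0.96. In scaled RPKM control replicate 1 lay within the db/db range of Kdr. Cldn5 averaged -0.41 with USP28 virus, 0.69 with null virus and -0.35 in control. Pecam1 averaged 1.28 with USP28 virus, 1.33 with null virus and 1.27 in control, and the groups overlapped. Tie1 averaged -0.06 with USP28 virus, -0.50 with null virus and -0.23 in control, with no overlap between any groups, but by narrow gaps. Its highest null-virus library was at -0.346 and its lowest control library at -0.334. The highest control library was at -0.131 and the lowest USP28-virus library at -0.123. In scaled RPKM null virus and control overlapped for Tie1. These relative levels are descriptions without a test.

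**Figure D3:**
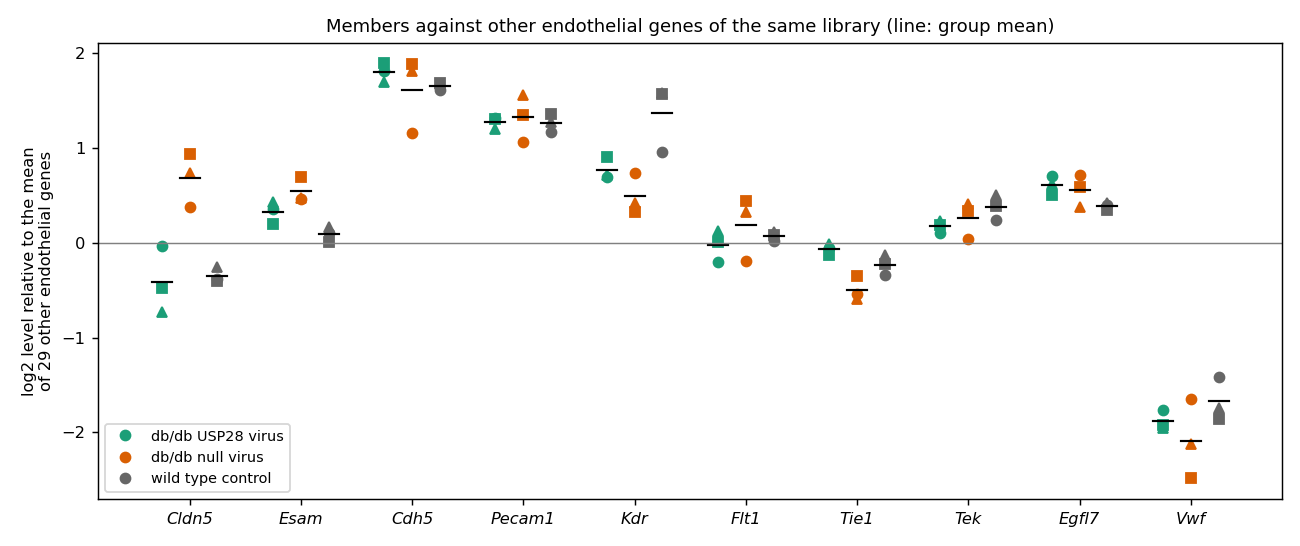
Log2 level of each of the 10 genes relative to the mean of 29 other endothelial genes of the same library (y axis), 3 libraries per group, with the group mean as a line. Kdr is below control in all db/db libraries, Cldn5 is above the other groups in the null-virus libraries, and Pecam1 overlaps between groups. For Cdh5 null virus overlaps both other groups, while every USP28-virus library is above every control library.

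A set of 3 ratios between related genes, picked after their values were seen, show the same data within each library. Cldn5 over Cdh5 was 0.276, 0.191 and 0.183 with USP28 virus, 0.581, 0.519 and 0.473 with null virus and 0.246, 0.231 and 0.259 in control. Null-virus replicate 1 was the lowest of its group in both genes and had the highest ratio. Flt1 over Kdr was 0.533, 0.534 and 0.662 with USP28 virus, 0.522, 1.08 and 0.940 with null virus and 0.519, 0.354 and 0.357 in control. Tie1 over Tek was 0.897, 0.802 and 0.844 with USP28 virus, 0.661, 0.621 and 0.494 with null virus and 0.668, 0.651 and 0.637 in control. A ratio shows unequal levels and does not say which gene differed.

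**Figure D4:**
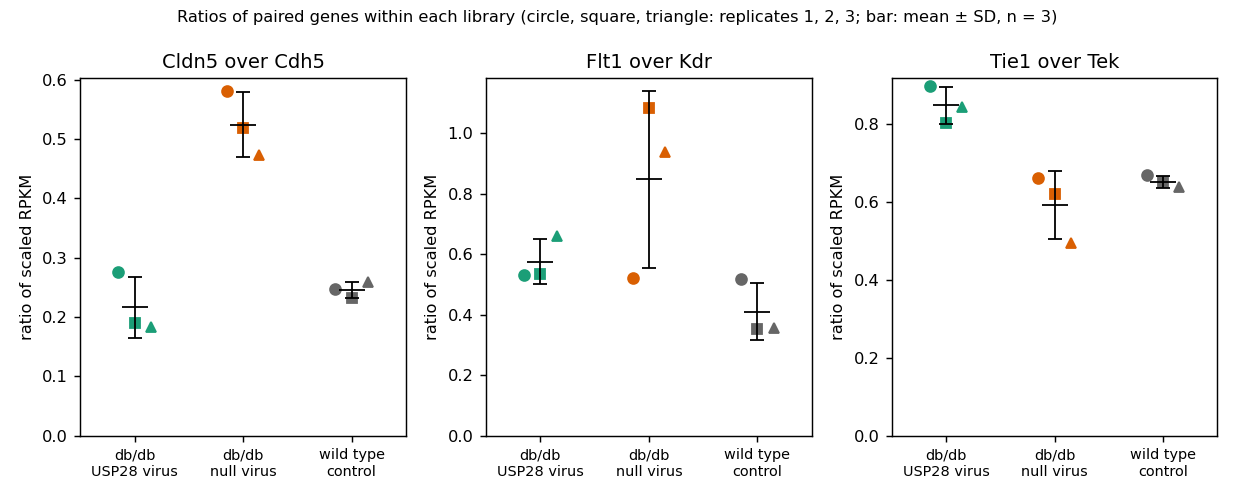
Ratios of scaled RPKM (y axis, from 0) of 3 gene pairs in each library, with the mean ± SD as bar. Cldn5 over Cdh5 is 0.473 to 0.581 in null-virus libraries and at most 0.276 elsewhere, and Tie1 over Tek is 0.802 to 0.897 in USP28-virus libraries and at most 0.668 elsewhere.

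Of 25 listed transcription factors that act in endothelium 23 were tested. For null virus minus control 11 were higher, 1 was lower and the rest did not pass (median log2 0.50). Over all tested genes 10.4% were higher and 12% lower there, and 5.69% and 6.24% for USP28 virus minus control. Klf2 and Klf4, factors that respond to blood flow, were at log2 1.54 (limma adjusted p = 0.0024) and 1.37 (adjusted p = 0.0014). Sox17, an arterial factor, was at 1.10 (adjusted p = 0.0039), Hey1, a Notch target, at 0.78 (adjusted p = 0.0040), and Mef2c, which muscle cells express as well, was the one lower (log2 -0.91, adjusted p = 0.017), a call lost without control replicate 1 or 2. Klf2 was at 14.7, 10.7 and 12.3 scaled RPKM with USP28 virus, 13.4, 8.74 and 10.2 with null virus and 3.09, 3.13 and 4.77 in control. For USP28 virus minus control 10 were higher and 0 lower, with Klf2 at log2 1.77 (adjusted p = 0.0035), Klf4 at 1.21 (adjusted p = 0.0045), the ETS factor Fli1 at 0.70 (adjusted p = 0.0055) and the venous factor Nr2f2 at 0.81 (adjusted p = 0.0074). That count was 4 and 6 without USP28-virus replicates 1 and 3 and 5 without control replicate 2 or 3. None passed between USP28 virus and null virus in limma.

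Of 30 further endothelial markers 29 were tested, with 12 higher and 1 lower for null virus minus control (median log2 0.32). Of all tested genes 10.4% were higher and 12% lower there. Tmem100, a membrane protein induced by BMP signalling, was at 6.30, 6.19 and 7.12 scaled RPKM with USP28 virus, 9.28, 13.8 and 12.8 with null virus and 3.14, 3.06 and 3.15 in control. It was higher with null virus than in control (log2 1.89, limma adjusted p = 0.00042), and it was the one gene of all these lists of endothelial genes that passed for USP28 virus minus null virus (log2 -0.84, adjusted p = 0.0497), a call that none of the fits without 1 library kept except the one without null-virus replicate 1. S1pr1, the sphingosine 1-phosphate receptor, was at log2 1.30 (adjusted p = 0.00093), Ly6c1 at 1.17 (adjusted p = 0.00091) and Adgrf5, an adhesion receptor, at 1.0003 (adjusted p = 0.00087), while Aplnr, the apelin receptor, was lower (log2 -1.55, adjusted p = 0.013), a call lost without control replicate 2 or 3. For USP28 virus minus control 11 were higher and 0 lower (5.69% and 6.24% of all genes), led by Adgrf5 (log2 1.14, limma adjusted p = 0.0018). That count was 18 without null-virus replicate 1, 6 without USP28-virus replicate 1 or 3 and 7 without control replicate 2 or 3.

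The other junction proteins and their cytoplasmic partners did not share one direction. For null virus minus control 2 of 19 were higher and 2 lower, near the shares of all genes (10.4% and 12%). The higher ones were F11r, a junctional adhesion molecule (log2 0.78, limma adjusted p = 0.0064), and Rasip1, a Ras-interacting protein of endothelium (log2 0.59, adjusted p = 0.012). The lower ones were vinculin, Vcl (log2 -1.11, adjusted p = 0.0041), and the polarity protein Pard3 (log2 -0.39, adjusted p = 0.0495), whose call was lost without any 1 library other than null-virus replicate 3. Rasip1 was lost without control replicate 2. Vinculin is abundant in heart muscle cells too. For USP28 virus minus control 5 of 19 were higher and 1 lower, where 5.69% and 6.24% of all genes were. Among the higher were Plekhg5 (log2 0.82, limma adjusted p = 0.030) and Ptprb, the phosphatase that acts on TIE2 and VE-cadherin (log2 0.65, adjusted p = 0.040). Vcl was lower (log2 -0.68, adjusted p = 0.041), which was kept when null-virus replicate 1 or 3 was left out and lost without any other library. Those 5 were 0 without USP28-virus replicate 1 or 3 or control replicate 2 or 3, and 1 without USP28-virus replicate 2 or control replicate 1. The higher count for null virus was 5 without null-virus replicate 1 and 1 without control replicate 2.

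The list of ligands and partners of the receptors, which also holds Angptl4, was mixed as well. For null virus minus control 3 of 15 were higher and 4 lower, where 10.4% and 12% of all genes were. Pgf, placental growth factor, a ligand of VEGFR1, was at 5.29, 6.05 and 6.18 scaled RPKM with USP28 virus, 7.31, 8.73 and 6.87 with null virus and 2.76, 3.23 and 3.33 in control. It passed in both comparisons with control, at log2 1.27 for null virus (limma adjusted p = 0.00086) and 0.89 for USP28 virus (adjusted p = 0.0053). Angptl4, an inhibitor of lipoprotein lipase, was at 2.48 for null virus minus control (adjusted p = 0.0038) and Plcg1, which signals from VEGFR2, at 0.53 (adjusted p = 0.0091). Nrp1, the neuropilin co-receptor of VEGFR2, was lower (log2 -0.80, adjusted p = 0.0040), and so was Vegfa (log2 -0.86, adjusted p = 0.023), the ligand of both receptors. Vegfa was at 94.8, 96.9 and 111 scaled RPKM with USP28 virus, 98.5, 72.6 and 70.9 with null virus and 104, 175 and 168 in control, so control replicate 1 was low in Vegfa as it was in Kdr. The 4 lower were 2 without null-virus replicate 2 or 3 and 1 without control replicate 2 or 3.

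Among 13 tested markers of vessel types, Sema3g, an arterial gene, was higher in both db/db groups (log2 1.69 and limma adjusted p = 0.00090 with null virus, log2 1.14 and adjusted p = 0.0066 with USP28 virus). Ephb4, a venous receptor, was higher with null virus (log2 0.45, adjusted p = 0.046), and Prox1, a factor of lymphatic endothelium that heart muscle also expresses, was lower with null virus (log2 -1.20, adjusted p = 0.0017) and with USP28 virus (log2 -1.03, adjusted p = 0.0064). The 2 of 13 higher with null virus (10.4% of all genes) were 5 without null-virus replicate 1. They were 1 without null-virus replicate 3, any USP28-virus library or control replicate 2 or 3. Sele, E-selectin, was at 0.0228 to 0.149 scaled RPKM in all libraries and was not tested.

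**Figure D5:**
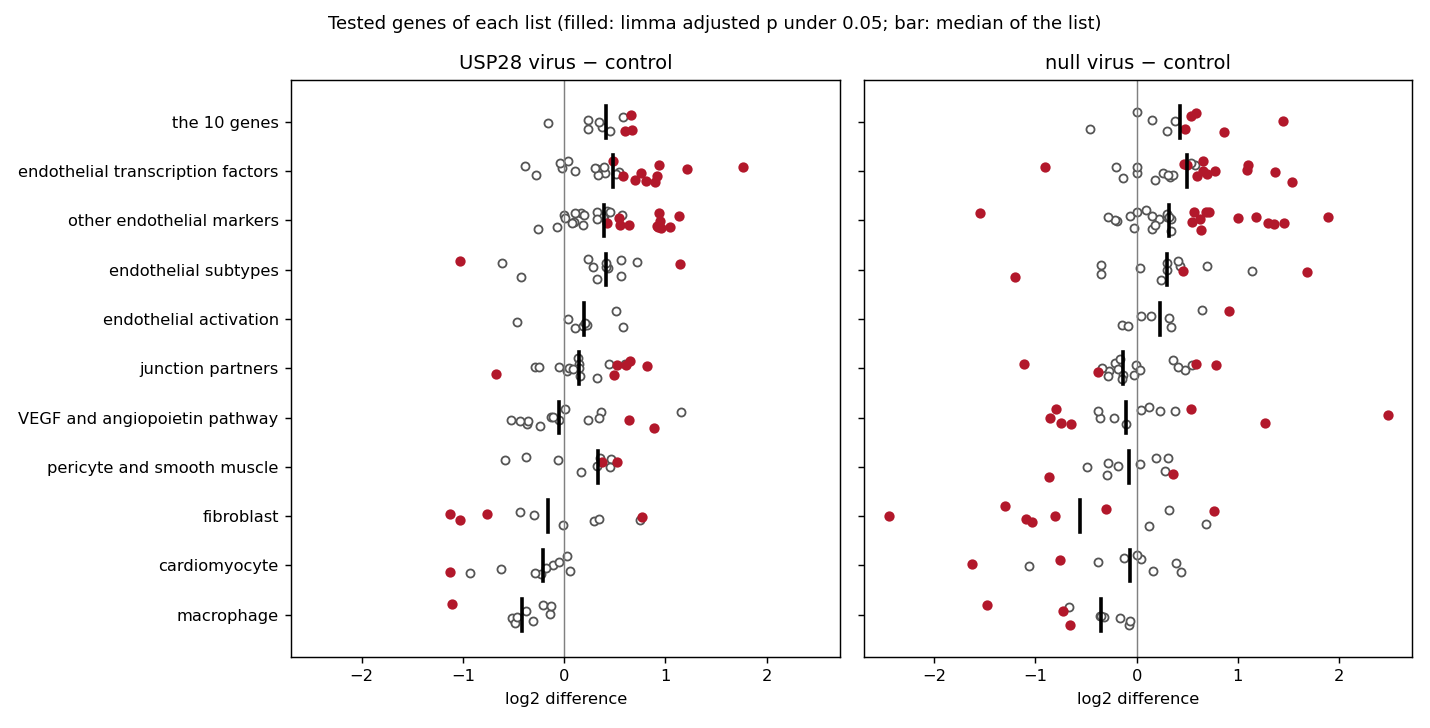
Log2 differences from control (x axis) of the tested genes of each list, with USP28 virus on the left and null virus on the right, filled in red where the limma adjusted p was under 0.05, and the list median as a bar. Endothelial transcription factors and other endothelial markers have medians of 0.32 to 0.50. The medians of the fibroblast, macrophage, cardiomyocyte, and VEGF and angiopoietin pathway lists are below 0 in both panels.

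Markers of other cells moved beside these genes, and their part in the results was not tested. Over all tested genes 10.4% were higher and 12% lower with null virus than in control, and 5.69% and 6.24% with USP28 virus. Of 10 fibroblast markers 1 was higher and 6 lower for null virus minus control, while their summed level was 305 to 345 scaled RPKM with USP28 virus, 288 to 327 with null virus and 225 to 250.9 in control. With null virus Gsn, which encodes gelsolin, rose, while Lum, Pi16 and the collagens Col1a1, Col1a2 and Col3a1 fell, Col1a1 not without control replicate 2. For USP28 virus minus control 1 was higher (Gsn) and 3 lower (Pi16, Col1a1 and Col3a1), or 1 lower without USP28-virus replicate 1 or control replicate 2. Lum alone was higher with USP28 virus than with null virus (log2 0.998, limma adjusted p = 0.027). That count was 3 without null-virus replicate 1 and 0 without null-virus replicate 2 or 3, any USP28-virus library or control replicate 2. Of 10 macrophage markers 3 were lower with null virus (1 without control replicate 2), with sums of 68.6 to 74.7 with USP28 virus, 73.7 to 99.5 with null virus and 82.9 to 109 in control. Cx3cr1 was the 1 lower with USP28 virus than in control (log2 -1.10, limma adjusted p = 0.018). That count was 3 without null-virus replicate 1 and 0 without USP28-virus replicate 2 or 3 or control replicate 2 or 3. Pericyte and smooth muscle markers had 1 of 10 higher and 1 lower with null virus and 2 of 10 higher with USP28 virus. The higher one with null virus, Pdgfrb (log2 0.36, limma adjusted p = 0.049), passed only without null-virus replicate 1 or 3 among the fits that left out 1 library. The higher ones with USP28 virus were Pdgfrb and Kcnj8, and that count was 0 without USP28-virus replicate 1 or 3 or control replicate 2 or 3, 1 without USP28-virus replicate 2 or control replicate 1 and 4 without null-virus replicate 1. The sums were 265 to 305 with USP28 virus, 214 to 275 with null virus and 219 to 266 in control. Heart muscle markers had 0 of 10 higher and 2 lower with null virus (1 higher and 5 lower without null-virus replicate 1, and 1 lower without any 1 control library), with sums of 35753 to 40463 with USP28 virus, 33458 to 50785 with null virus and 39158 to 43220 in control. The sum of 50785 was that of null-virus replicate 1. Null-virus replicates 2 and 3, at 35220 and 33458, were below every control library. Actc1 was the 1 lower with USP28 virus than in control (log2 -1.13, limma adjusted p = 0.011). That count was 5 without null-virus replicate 1 and 0 without USP28-virus replicate 1 or control replicate 2.

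Platelets carry several of the 10 transcripts, and 3 of 10 platelet markers passed the filter. Of these Pf4 was lower with null virus than in control (log2 -0.86, limma adjusted p = 0.045), a call lost without null-virus replicate 2 or 3, USP28-virus replicate 1 or any control library. F13a1 (log2 -0.75, adjusted p = 0.055) and Gp1ba (log2 0.18, adjusted p = 0.74) did not pass there. The list summed to 11.4 to 22.2 scaled RPKM with USP28 virus, 9.79 to 10.1 with null virus and 13.9 to 19.8 in control. Red cell genes summed to 108 to 223 with USP28 virus, 128 to 198 with null virus and 138 to 526 in control, with 0 of 5 passing. Lymphoid markers summed to 1.33 at most in any library, with Ms4a1, a B cell gene, under 0.05 in all of them. Adipocyte markers summed to 0.332 at most, with Plin1, Lep and Ucp1 under 0.05 in all libraries, and mesothelial markers to 0.698 at most, with Lrrn4 under 0.05 in all.

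Likeness of pattern was measured as the root mean square difference between log2 profiles, each centred on its own mean, over the 9 libraries and 10794 other genes. The genes nearest to Cldn5 were Cdkn1a (0.18), Msc (0.20), Ypel3 (0.25), Penk (0.26) and Calr3 (0.26). Cdkn1a, the cell cycle inhibitor p21, averaged 3.23 ± 0.436 scaled RPKM with USP28 virus, 7.06 ± 1.29 with null virus and 2.88 ± 0.133 in control. Nearest to Esam were Jdp2 (0.07), Ccnl2 (0.08), Irak2 (0.09), Kcna5 (0.10) and Pkp4 (0.10). Nearest to Kdr were Lrrcc1 (0.11), Magt1 (0.11), Cyr61 (0.12), Tob1 (0.12) and Cacna1s (0.13), and nearest to Vwf were Plcl2 (0.10), Mr1 (0.11), Tasp1 (0.12), Hlcs (0.12) and Pcbp4 (0.13). The profiles share libraries and groups, and the values are descriptions.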

How the data were processed

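Per the labels' protocols, polyadenylated RNA of left ventricle was made into directional libraries and sequenced with a NovaSeq instrument. The tools named in the submitters' processing notes are HISAT2 and DESeq2, without a role, and the build named there is GRCh38, a human one. The deposited table carries mouse symbols, and the spans of 25482 among 30128 genes equal those of GENCODE M21 (GRCm38), and positions follow that build. How reads were counted, and whether by strand, is not stated there. The deposited values are RPKM, a unit read from the values, since RPKM times gene length gave whole multiples of 1 step per library for 99.984% of values above 0 (tolerance 0.01 reads). That step gave the reads and the depth.

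RPKM values were scaled by an unweighted trimmed mean of M values (30% of ratios and 5% of levels trimmed) and log2(scaled RPKM + 0.1) was tested with limma 3.58.1 under R 4.3.3 (eBayes with trend and robust settings). Differences on this scale are too small for low genes. The filter kept 14104 genes that reached 0.5 RPKM in 3 or more libraries. All 9 libraries entered 1 fit with 3 groups, and p-values were adjusted by Benjamini-Hochberg over all tested genes within each comparison. Passing means an adjusted p under 0.05. Errors are SD over 3 libraries or the SE of the fit. Members and lists were chosen with earlier results of these data known. All 10 members are named, and of each further list up to 4 genes with the smallest adjusted p per comparison; others were named after their values were seen (Mef2c, Aplnr, Vegfa, Sele, Mir126a and Gm20532). Etv2 matched no row. The calls of the list of activated endothelium and the level of 1 lymphoid marker are not reported here. The steps were tested on simulated reads. Alternatives were other pseudocounts, filters and scalings, fits of 2 groups, a replicate block, limma voom on the recovered reads and the removal of each library. No libraries were merged. Figures were drawn with matplotlib 3.10.9.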

Additional observations from a re-analysis of the deposited data

How the results depend on the processing

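The number of the 10 genes passing for null virus minus control was 5, where 22.4% of all genes passed. It was 3 with no filter on low values (6.86% of all genes), 3 with library totals alone (17.2%) and 3 when only the 2 groups were fitted (11.7%), with Pecam1 and Flt1 lost each time, and 3 to 8 when 1 library was left out. For USP28 virus minus null virus it was 0 in the limma fit, 1 with limma voom on the recovered reads (Cldn5, 1.38% of all genes) and 0 to 2 when 1 library was left out. For USP28 virus minus control it was 3 (11.9% of all genes), then 5 with limma voom (16.4%), 6 when only the 2 groups were fitted (27.5%) and 1 to 6 when 1 library was left out, with 2.64% of all genes passing without USP28-virus replicate 1 and 29.4% without null-virus replicate 1. Libraries of the same replicate number showed no shared deviation from their group means, with correlations of deviations between -0.029 and 0.06. For libraries of unlike number these were between -0.087 and 0.059. The labels state no pairing, and such correlations cannot show how samples were collected. With the replicate block the counts were 4, 0 and 3 in the same order of comparisons.

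Over 540 values of the 10 genes under 18 alternatives, 485 kept their sign and their side of the threshold, 26 lost the call, 15 gained it and 14 changed sign. None of those that changed sign was past the threshold in the reported fit. Vwf, null virus minus control, was 0.0039 with a pseudocount of 1 and ran from -0.20 to 0.19 with 1 library left out. For USP28 virus minus null virus, Pecam1 was 0.062 and Tek 0.020 with library totals alone. With 1 library left out Pecam1 ran from -0.18 to 0.092, Tek from -0.20 to 0.0087, Egfl7 from -0.020 to 0.14 and Cdh5 from -0.047 to 0.35. The cause of these changes was not tested. Counts of genes were 78 of 14104 for USP28 virus minus null virus over the whole table, 948 without null-virus replicate 1, 195 with limma voom, 10 with no filter, 31 with library totals alone (27 higher and 4 lower, beside 48 higher and 30 lower in the reported fit), 0 with the replicate block, 0 when only the 2 groups were fitted, and 0 in the fits that left out null-virus replicate 2 or 3, control replicate 2 or a USP28-virus library. Library totals alone gave 612 higher and 309 lower for USP28 virus minus control, beside 802 higher and 880 lower. The planned quasi-likelihood count test was not run, and limma voom is the test on reads given here.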
